A study of Mus musculus with 5 samples.

Results

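The mouse genes numbered Zfp900 to Zfp999 are zinc finger genes named by serial number, and 59 of the 27179 gene identifiers in the deposited count table belong to them. They were chosen by symbol alone: every identifier whose RefSeq symbol lies between Zfp900 and Zfp999 was kept, Zfp955a and Zfp955b included, and 1 pseudogene was left out. The numbers in use run from 930 to 995. RNA came from ear skin of B6 mice, the C57BL/6 background, with 2 groups. The control group had 3 libraries whose titles give Cd1d +/- while their genotype tag says WT, so that controls carrying 1 intact copy cannot be told apart from controls carrying both. The KO group had 2 libraries, titled Cd1d -/-, from mice without Cd1d, the protein that presents lipid antigens to natural killer T cells. The labels used here give no age, sex or treatment, and they do not say whether libraries of a group came from separate mice, so p-values measure only the spread between these libraries.

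C2H2 zinc finger proteins read DNA through a row of short finger repeats, each held by 2 cysteines and 2 histidines around a zinc ion and joined to the next by a conserved linker. In many of them the row is preceded by a KRAB domain, which recruits the corepressor Trim28 (KAP1) and, through it, the histone H3 lysine 9 methyltransferase Setdb1. Such KRAB zinc finger genes multiplied by tandem duplication, lie in clusters, and are best known for silencing endogenous retroviruses and other transposable elements. Zfp932 is among the members for which binding to such elements has been described, while the DNA targets of most members are not well known.

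The repeated build of these genes is shown first, because it sets which reads can be told apart between them. Each line holds 1 finger repeat of 84 bases cut from the coding sequence (GENCODE M21 transcripts, GRCm38), read 5′ to 3′ on the plus strand, with the codons of the linker that opens the repeat in capitals. The repeats lie within single exons at chr9:88569333-88569416 (Zfp949), chr4:147178954-147179037 (Zfp991), chr4:146658007-146658090 (Zfp993), chr2:178032985-178033068 (Zfp971) and chr2:177475010-177475093 (Zfp970).
Zfp949: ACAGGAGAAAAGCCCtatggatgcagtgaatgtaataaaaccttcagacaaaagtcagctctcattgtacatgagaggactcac
Zfp991: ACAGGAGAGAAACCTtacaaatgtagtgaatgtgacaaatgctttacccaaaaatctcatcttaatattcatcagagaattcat
Zfp993: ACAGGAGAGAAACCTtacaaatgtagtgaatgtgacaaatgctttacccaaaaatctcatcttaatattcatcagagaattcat
Zfp971: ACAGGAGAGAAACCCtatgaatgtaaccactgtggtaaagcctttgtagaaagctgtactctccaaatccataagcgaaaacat
Zfp970: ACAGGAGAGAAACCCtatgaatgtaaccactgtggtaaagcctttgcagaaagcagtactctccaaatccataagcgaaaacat
The Zfp991 and Zfp993 repeats, from 2 genes of the chromosome 4 cluster, were identical at 84 of 84 bases. The Zfp971 and Zfp970 repeats, from the chromosome 2 cluster, were identical at 82 of 84. Between these clusters the match was looser, with 56 of 84 bases shared by Zfp991 and Zfp971. Zfp949, which lies in no cluster, shared 58 of 84 bases with Zfp991 and 53 of 84 with Zfp971.

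Start regions are also shared. RefSeq promoter windows of 300 bases (GRCm38.p6) were matched for 54 of the 59 members, and 5 pairs of members had near-identical or related windows. The pair Zfp955a and Zfp955b was identical at 300 of 300 positions, as was the pair Zfp966 and Zfp967. Zfp968 and Zfp973 were identical at 299, Zfp965 and Zfp971 at 291, and Zfp979 and Zfp980 at 255 positions. The windows below lie at chr2:178023034-178023333 (Zfp971, plus strand), chr2:175469775-175470074 (Zfp965, plus strand), chr17:33255096-33255395 (Zfp955a, minus strand) and chr17:21962309-21962608 (Zfp943, plus strand). Each is written 5′ to 3′ on the gene's strand. Capitals mark CCAAT on either strand in the first 3 (ATTGG on the other strand) and, in Zfp943, the GC box GGGCGG on either strand.
Zfp971: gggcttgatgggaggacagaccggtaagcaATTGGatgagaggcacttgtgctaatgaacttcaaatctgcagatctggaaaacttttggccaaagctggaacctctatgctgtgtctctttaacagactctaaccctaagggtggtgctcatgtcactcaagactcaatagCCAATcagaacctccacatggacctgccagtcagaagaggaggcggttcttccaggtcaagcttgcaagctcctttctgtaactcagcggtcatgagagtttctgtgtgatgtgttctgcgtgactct
Zfp965: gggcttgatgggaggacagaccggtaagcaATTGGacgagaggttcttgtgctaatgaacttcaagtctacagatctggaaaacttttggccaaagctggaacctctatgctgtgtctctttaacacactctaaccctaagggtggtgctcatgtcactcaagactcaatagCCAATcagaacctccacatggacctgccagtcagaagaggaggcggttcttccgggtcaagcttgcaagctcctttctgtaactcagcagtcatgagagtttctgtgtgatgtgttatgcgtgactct
Zfp955a: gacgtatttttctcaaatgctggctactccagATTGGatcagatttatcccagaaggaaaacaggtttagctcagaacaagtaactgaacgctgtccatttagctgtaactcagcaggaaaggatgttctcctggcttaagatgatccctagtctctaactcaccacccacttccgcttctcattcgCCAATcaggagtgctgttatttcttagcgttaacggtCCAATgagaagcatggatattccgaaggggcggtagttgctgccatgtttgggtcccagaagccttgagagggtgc
Zfp943: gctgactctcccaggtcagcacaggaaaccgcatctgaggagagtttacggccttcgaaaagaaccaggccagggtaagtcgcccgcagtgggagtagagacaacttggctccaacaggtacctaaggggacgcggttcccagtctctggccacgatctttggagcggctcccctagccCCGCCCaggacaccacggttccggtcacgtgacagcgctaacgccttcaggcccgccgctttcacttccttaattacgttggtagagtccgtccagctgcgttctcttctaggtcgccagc
The Zfp971 and Zfp965 windows are shown because these genes differed widely in counts despite 291 identical positions. Zfp971 had 736, 667 and 232 reads in control replicates 1, 2 and 3, and KO replicates 1 and 2 had 383 and 324; every list of library values below keeps this order. Zfp965 had 2, 12 and 0 reads against 1 and 1 in KO. Of the 100-base transcript windows of Zfp965, 100% also occur in another gene, against 13.8% for Zfp971. Its low count can therefore mean little RNA or reads assigned elsewhere or dropped, and these cannot be told apart. The Zfp943 window holds no CCAAT, and its start lies 95 bases from that of Zfp942, which is read in the opposite direction, so that the windows of this head-to-head pair overlap by 194 bases.

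CCAAT, searched on both strands, was in the window of 41 of 54 members (75.9%) against 41.1% of 27025 genes with a window. The ETS core CCGGAAG was in 13 (24.1%) against 9.9%, and the E-box CACGTG in 7 (13%) against 8.1%. The GC box GGGCGG was in 20 (37.0%) against 38.2%, the cyclic AMP response element TGACGTCA in 1 (1.9%) against 2.0%, and TATAAA in none of 54 against 15.7%. Near-identical windows were counted once per gene, so these shares are over genes and not over independent sequences, and a match of letters is a description only.

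Of 57 members with an annotated coding sequence, 53 held a pattern of the KRAB domain in the translated sequence, and Zfp953, Zfp956, Zfp957 and Zfp974 did not. The number of C2H2 finger patterns ran from 0 (Zfp957) to 21 (Zfp974) with a median of 11, and 38 members had at least 10. Patterns were counted anywhere in the sequence, so finger numbers here are not lengths of an unbroken row. A KRAB domain that departs from the pattern would be missed. Transcripts of the members were rich in A and T: the median GC content of the longest transcript was 38.7% (33.2 to 53.9), against 49.96% over all genes tested and 45.7% over the other numbered Zfp genes. The median transcript length was 2798 bases (1271 to 6618). Members lie on 12 chromosomes, with 15 on chromosome 17, 11 on chromosome 4, and 9 each on chromosomes 2 and 7. With a gap of at most 1 Mb between neighbours, 41 members fell into 7 clusters and 18 stood alone. The largest were chr4:145670697-147849126 with 11 members, chr17:21565816-22867309 with 10, and chr2:175372034-178078425 with 8.

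Most members were expressed in ear skin at a low level. Together they took 0.0364% of all counts. Levels between genes are compared as CPM (reads per 1e+06 reads, scaled by TMM) per kilobase of the longest transcript, averaged over the 5 libraries. The median of the tested members was 2.17 CPM per kb against 5.10 for all genes tested, and 32 members were above 1. Zfp954 on chromosome 7 (chr7:7114683-7121476, 9 fingers) was highest, at 7.64, 8.29 and 8.47 CPM per kb in control replicates and 10.2 and 9.24 in KO. Zfp970 followed with a mean of 7.95, then Zfp943 with 7.03, Zfp971 with 5.60, Zfp949 with 5.47 and Zfp944 with 4.93. Neighbours in this order overlapped over the libraries. Zfp943, for instance, spanned 5.96 to 9.82 CPM per kb and Zfp970 6.65 to 8.93.

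Reads that fit several genes bear on these levels. For 58 members with a transcript, the share of 100-base windows that also occur in a transcript of another gene was 0 for 16 members, above 0 for 42, and at least 50% for 9. These 9 were Zfp960, Zfp965, Zfp966, Zfp967, Zfp968, Zfp973, Zfp987, Zfp991 and Zfp993, and Zfp965 and Zfp967 were shared over 100% of their windows. Their median level was 0.0865 CPM per kb, against 1.93 for the 49 members below 50% and 3.12 for the 16 with none. The sources used here do not say how reads with several matches were counted, so a low count of a shared gene can mean little RNA or reads assigned elsewhere or dropped, and these cannot be told apart. Zfp991 and Zfp993 stood outside the pattern, with 73.8% and 71.9% of windows shared and means of 4.59 and 2.17 CPM per kb. Zfp960, with 69.2% shared, had a mean of 0.809. Reads were also not separated by strand as far as the sources state, and 21 members overlap another annotated gene, among them Zfp993, whose span of chr4:146512849-146991471 overlaps 16.

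**Figure D1:**
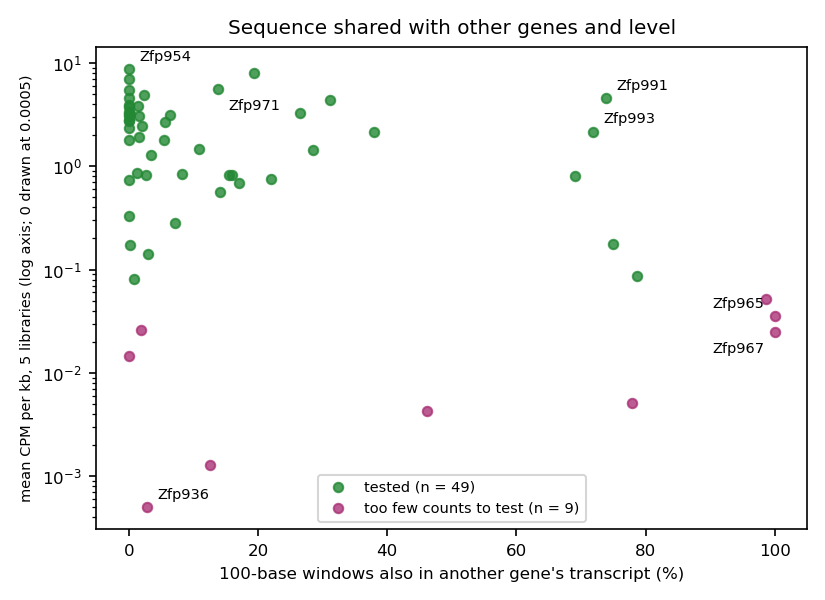
Mean level of each member over the 5 libraries (CPM per kb of the longest transcript, log axis) against the percentage of its 100-base transcript windows that also occur in another gene. Each point is 1 of 58 members; members with almost all windows shared lie below 0.1 CPM per kb, while Zfp991 and Zfp993, at 73.8% and 71.9%, lie above 2, and Zfp936, at 0 counts, is drawn at the bottom.

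Of the 59 members, 9 had too few reads to be tested: Zfp936, Zfp957, Zfp965, Zfp967, Zfp968, Zfp980, Zfp981, Zfp985 and Zfp987. None had more than 14 reads in any library. Zfp936 had 0 reads in all 5 libraries, where 3 reads would have been 0.0356 to 0.0910 CPM, so expression below that was not detectable at this depth. Zfp967 had 4, 2 and 2 reads in the controls against 0 and 2 in KO, and its twin in promoter sequence, Zfp966, had 19, 14 and 8 against 9 and 19.

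Control libraries held 79160005, 73692964 and 32353957 counts, and KO libraries 54596686 and 45270805. Cd1d1, the targeted gene, had 6.61, 9.87 and 5.52 CPM in the controls against 1.19 and 1.12 in KO, a log2 fold change of -2.67 (SE 0.29, edgeR quasi-likelihood adjusted p = 0.0152); the KO libraries lay below every control, as labelled. Of 17472 genes tested with edgeR's quasi-likelihood test and Benjamini-Hochberg adjustment at 0.05, 474 were higher and 183 lower in KO. With libraries scaled by total count alone the split was 268 higher and 974 lower, and the median over all tested genes moved from -0.02 to -0.16 on the log2 scale. The skin markers were present in every library: Krt5, Krt14, Krt1 and Krt10 summed to 24256 to 28303 CPM in the controls against 26966 and 30292 in KO. KO replicate 1 stood apart in hair follicle genes (Krt71, Krt27, Tchh and Krt25), whose sum was 553 CPM, where controls had 10.7 to 18.5 and KO replicate 2 had 14.1. Of 11 lists of cell type markers with 4 genes each, the KO sums lay above all controls in 3, below in 1 and overlapped them in 7. Over all single genes tested, 19.9% lay above all controls and 20% below. Of the marker genes only Mylpf (log2 fold change 0.60, edgeR adjusted p = 0.0329) and Cfd (0.71, adjusted p = 0.0351) passed. With trends on transcript length and GC content removed these did not pass (0.18 and 0.21), while Trac (-2.37), Cdh5 (-0.43) and Lyve1 (-0.50) did. Trac rested on 34, 49 and 14 reads in the controls and 6 and 5 in KO. The other T cell markers lay above 0 in that setting (Cd3d 0.37, Cd3e 0.12 and Cd4 0.13). The higher lists were skeletal muscle (2347 to 2618 CPM in the controls, 3128 and 3754 in KO), myeloid cell (555 to 615, then 667 and 628) and melanocyte (192 to 228, then 240 and 258). The lower list was endothelial cell (Pecam1, Cdh5, Kdr and Lyve1), at 157 to 177 CPM in the controls and 131 and 129 in KO, with all 4 genes below 0 on the log2 scale and 0 passing the edgeR test. With the trends removed Kdr was at 0.03 and Pecam1 at -0.30, and neither passed. Only the cartilage list had a gene at 0 in any library. Their part in the values below was not tested, and in bulk skin fewer cells of a type and less RNA per cell cannot be told apart.

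No member passed the test for a difference between Cd1d -/- and control ear skin. Of 50 tested members, 0 were higher and 0 lower in KO, where 2.71% and 1.05% of all tested genes were (3.76% in either direction). Adjusted p-values of the members (edgeR quasi-likelihood test, Benjamini-Hochberg) ran from 0.140 to 0.992. At an unadjusted p under 0.05 there were 3 members, Zfp974, Zfp993 and Zfp948, or 6.0% against 21.9% of all genes. Intervals of the members were wider than those of all genes, as given below, and these shares do not allow for that. DESeq2 and limma voom also called 0 members. Log2 fold changes ran from -0.87 (Zfp973) to 0.68 (Zfp993), with a median of -0.13 against -0.02 for all genes, and 34 of 50 were below 0, 68.0% against 52.4% of all genes.

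The size of change left outside the interval differed by member, and each interval is for 1 gene, with no adjustment over the 50 members. The 95% interval of the log2 fold change lay within a 2-fold change either way for 38 of 50 members and reached past it for 12, and it lay within 1.5-fold for 17. Over all 17472 genes tested, 13400 lay within 2-fold and 7673 within 1.5-fold. The median width to either side was 0.51 on the log2 scale, against 0.35 over all genes tested, so members were measured less precisely. The tightest value among the named members was that of Zfp949 (chr9:88548020-88571086), with 19.6, 18.2 and 18.5 CPM in the controls and 19.6 and 19.1 CPM in KO. Its log2 fold change was 0.04 (SE 0.12, 95% interval -0.23 to 0.32). The loosest was that of Zfp973, with 33, 30 and 1 reads in the controls and 7 and 8 in KO, and a log2 fold change of -0.87 with an interval of -2.59 to 0.86.

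**Figure D2:**
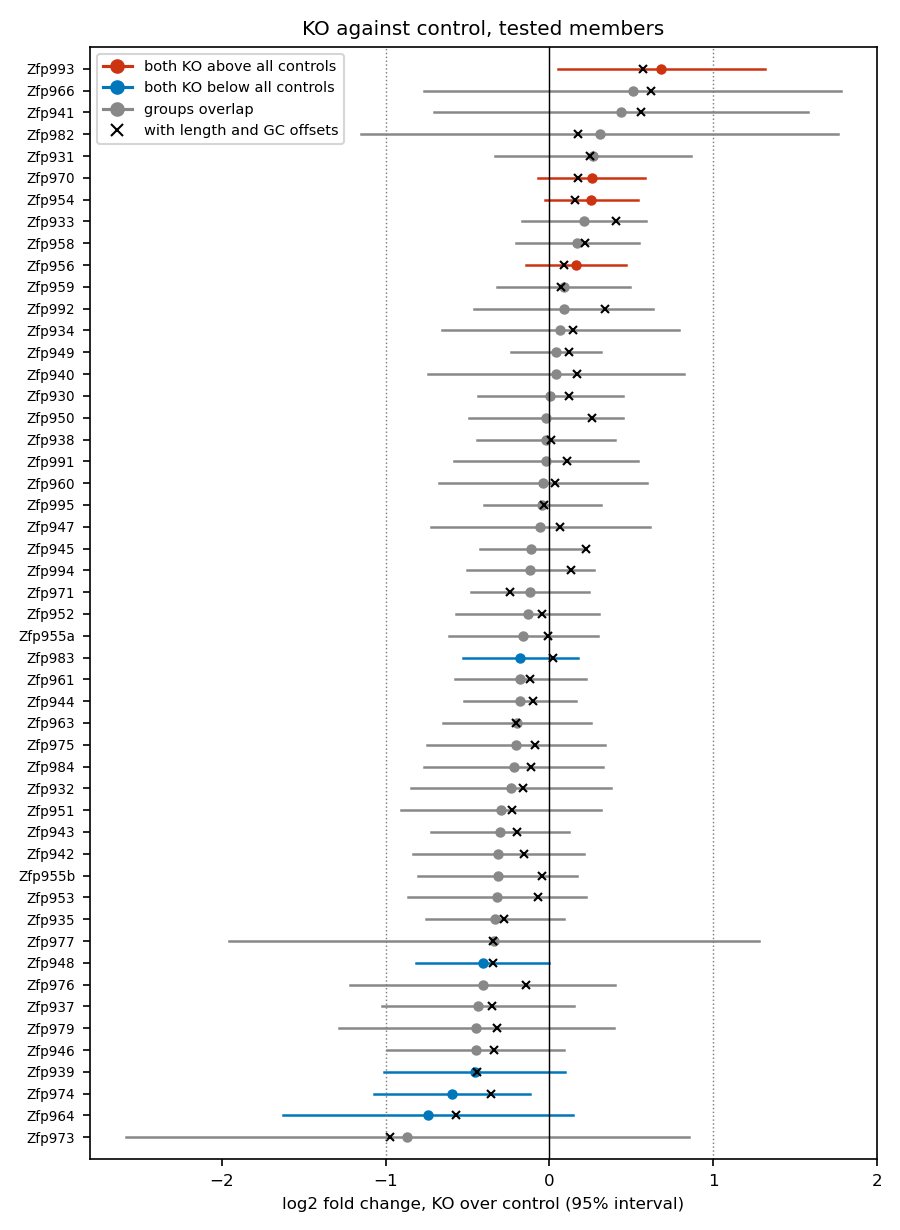
Log2 fold change of KO over control for the 50 tested members (points) with 95% intervals (lines); dotted lines mark a 2-fold change, and crosses give the fold change after trends on transcript length and GC content were removed. Red marks the 4 members with both KO libraries above all controls, blue the 5 with both below; only Zfp974, Zfp993 and Zfp948 have an interval that leaves out 0.

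Both KO libraries lay above all 3 controls in 4 of 50 members, Zfp954, Zfp956, Zfp970 and Zfp993, against 19.9% of all genes. Zfp993, a short member with 2 finger patterns, had 1.80, 3.08 and 1.76 CPM in the controls and 3.25 and 3.92 CPM in KO. KO replicate 1 exceeded control replicate 2 by little. The log2 fold change was 0.68 (SE 0.28, edgeR adjusted p = 0.196). Without control replicate 2 it was 1.01 (SE 0.27, adjusted p = 0.0358), the only setting in which a member was called higher. Its near copy Zfp991, identical to it over the printed repeat, had 11.5, 18.1 and 9.22 CPM in the controls and 14.7 and 10.97 in KO, with both KO values inside the control range and a log2 fold change of -0.02 (SE 0.25).

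Zfp954, the member with the highest level, had 15.6, 16.9 and 17.3 CPM in the controls (mean 16.6 ± 0.887, SD, n = 3) and 20.8 and 18.9 in KO (19.8 ± 1.37, SD, n = 2). The groups did not overlap, but the log2 fold change of 0.26 (SE 0.13, edgeR adjusted p = 0.276) did not pass. Zfp970 (chr2:177464742-177479194, 14 fingers) had 11.02, 13.2 and 10.4 CPM in the controls and 13.7 and 14.0 CPM in KO, a log2 fold change of 0.26 (SE 0.15, edgeR adjusted p = 0.334). Its neighbour in sequence, Zfp971 (chr2:178023284-178035859), had the opposite sign: 8.73, 8.70 and 7.04 CPM in the controls and 7.50 and 7.56 in KO, both inside the control range, with a log2 fold change of -0.12 (SE 0.16). The difference between these neighbours was not tested. Zfp956, 1 of the 4 members without a KRAB pattern, had 10.9, 9.90 and 10.4 CPM against 12.2 and 11.2 CPM (log2 fold change 0.16, SE 0.14).

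Both KO libraries lay below all 3 controls in 5 of 50 members, Zfp939, Zfp948, Zfp964, Zfp974 and Zfp983, against 20% of all genes. Zfp974 (Entrez 73430, chr7:27905414-27929699), which has the most finger patterns and no KRAB pattern, had 5.01, 5.28 and 4.85 CPM in the controls and 3.94 and 2.73 CPM in KO. The controls lay close together (5.05 ± 0.217, SD, n = 3) and the KO libraries farther apart (3.33 ± 0.852, SD, n = 2). Its log2 fold change of -0.60 (SE 0.22) had the smallest adjusted p of any member, 0.140 by edgeR, and was -0.36 after the trends on length and GC content were removed.

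Zfp948 (Entrez 381066, chr17:21565816-21589324, 15 fingers) had 13.4, 16.2 and 10.5 CPM in the controls and 10.2 and 10.04 in KO. The KO values lay just under control replicate 3, and the log2 fold change was -0.41 (SE 0.18, edgeR adjusted p = 0.228). Zfp946 (chr17:22424182-22456689), from the same cluster, had 7.01, 6.72 and 4.01 CPM in the controls and 4.43 and 4.30 in KO, so that control replicate 3 was the lowest library of all and the groups overlapped. Its log2 fold change was -0.45 (SE 0.24, edgeR adjusted p = 0.310). Without control replicate 3 both passed, Zfp948 at -0.55 (adjusted p = 0.0189) and Zfp946 at -0.65 (adjusted p = 0.0272).

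Zfp939 on chromosome 7 had 2.18, 2.75 and 2.31 CPM in the controls and 1.70 and 1.82 in KO, a log2 fold change of -0.46 (SE 0.25, edgeR adjusted p = 0.313). Zfp964 (chr8:69654463-69667132) was a low member with 1.17, 0.822 and 0.668 CPM in the controls and 0.627 and 0.444 in KO. Its log2 fold change of -0.74 (SE 0.40, edgeR adjusted p = 0.306) rested on 19 to 99 reads per library. Zfp983 had 8.23, 9.98 and 8.25 CPM in the controls and 7.81 and 7.82 in KO (log2 fold change -0.18, SE 0.16), and its value was 0.02 with the trends removed.

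In 41 of 50 members the groups overlapped, and in 25 both KO libraries lay inside the control range. Over all genes tested 19.9% lay above all controls and 20% below, and the rest overlapped. The share of all genes with both KO libraries inside the control range was not taken. Zfp943 (chr17:21962559-21994366) had 18.1, 26.9 and 17.5 CPM in the controls and 16.3 and 17.6 in KO. Its head-to-head neighbour Zfp942 had 10.3, 14.9 and 7.71 CPM in the controls and 9.14 and 8.61 in KO. In both the highest library was control replicate 2, and the log2 fold changes were -0.30 (SE 0.19) for Zfp943 and -0.31 (SE 0.24) for Zfp942. The pair with identical promoter windows differed in its controls: Zfp955a had 9.92, 15.8 and 10.4 CPM, highest in replicate 2, while Zfp955b had 5.99, 5.49 and 4.04 CPM. In KO, Zfp955a had 11.4 and 10.2 CPM and Zfp955b 3.82 and 4.55 CPM, and the log2 fold change was -0.16 (SE 0.21) for Zfp955a and -0.32 (SE 0.22) for Zfp955b. These genes share 26.5% and 16.05% of their transcript windows with other genes. Their counts depend on how such reads were assigned, and the shares do not measure by how much.

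Zfp935 on chromosome 13 had 6.94, 7.45 and 5.40 CPM in the controls and 5.05 and 5.49 in KO. Zfp937 on chromosome 2 had 4.67, 5.88 and 3.16 CPM against 3.70 and 3.10 CPM. Neither passed: the log2 fold change was -0.33 (SE 0.19) for Zfp935 and -0.44 (SE 0.26) for Zfp937. Zfp944 had 14.6, 16.3 and 12.3 CPM in the controls and 13.4 and 12.1 in KO (log2 fold change -0.18, SE 0.15). Zfp932 (chr5:109996502-110012266, 15 fingers), the member with described binding to endogenous retroviruses, was low in ear skin, at 1.64, 2.45 and 1.94 CPM in the controls against 1.63 and 1.80 in KO (log2 fold change -0.23, SE 0.28). KO replicate 1 was about level with control replicate 1. Zfp950 (chr19:61053840-61140844, 17 fingers) was among the most counted members, at 18.8, 25.1 and 13.6 CPM in the controls against 18.7 and 19.3 in KO. Both KO libraries lay inside a wide control range, and the log2 fold change was -0.02 (SE 0.21), or 0.26 with length and GC trends removed.

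The chromosome 4 cluster had members with values to either side. Zfp933 (chr4:147822986-147849126, 12 fingers) had 10.2, 13.60 and 9.71 CPM in the controls against 13.55 and 12.4 in KO, all inside the control range, with a log2 fold change of 0.21 (SE 0.17). With length and GC trends removed it was 0.41 (edgeR adjusted p = 0.0846), the smallest adjusted p of a member in that setting. Zfp984, next to it at chr4:147753974-147812229, had 11.9, 17.2 and 9.22 CPM against 12.9 and 9.13, a log2 fold change of -0.22 (SE 0.25). In both, control replicate 2 was the highest library. Zfp992 in the same cluster had 6.52, 8.28 and 4.25 CPM against 7.28 and 6.33 in KO, all inside the control range (log2 fold change 0.09, SE 0.25, or 0.34 with the trends removed).

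On chromosome 8, Zfp930 had 7.83, 12.2 and 8.47 CPM in the controls against 10.1 and 8.99 in KO, the log2 fold change nearest to 0 of all members (0.01, SE 0.20). Zfp958 had 7.52, 10.1 and 7.71 CPM against 9.75 and 9.29, inside the control range (0.17, SE 0.17). Zfp961 had 9.07, 11.8 and 8.04 CPM against 8.62 and 8.47 (log2 fold change -0.18, SE 0.18). Of these 3 genes, all with a KRAB pattern and with no transcript window shared with another gene, none had a KO library outside the control range. Members described here outside the rule for named genes (Zfp930, Zfp932, Zfp933, Zfp942, Zfp950, Zfp955a, Zfp956, Zfp958, Zfp961, Zfp973, Zfp983, Zfp984, Zfp991 and Zfp992, and the low members given by their reads) were picked after their values were seen.

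**Figure D3:**
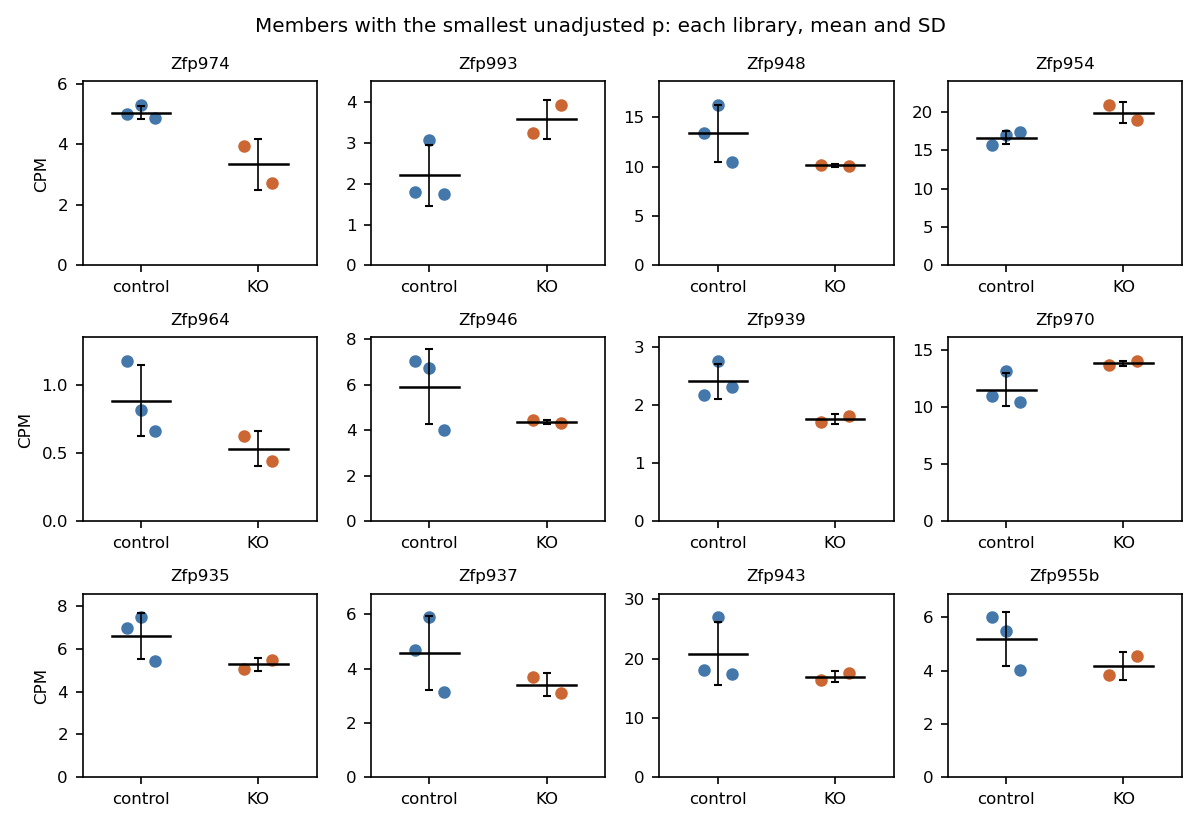
TMM-normalised CPM in each library (points) with the group mean and SD (bars; n = 3 control and n = 2 KO) for the 12 tested members with the smallest unadjusted p. Vertical axes start at 0 and differ between panels; Zfp954, Zfp970 and Zfp993 lie higher in both KO libraries than in any control, Zfp939, Zfp948, Zfp964 and Zfp974 lie lower, and in the other 5 panels the groups overlap.

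The spread among the controls was shared by most members. Control replicate 2 was the highest control for 35 of 50 members and control replicate 3 the lowest for 37. Expressed as log2(CPM + 0.5) minus the control mean, the median of the 50 members was 0.02, 0.21 and -0.23 in the controls, against -0.04 and -0.13 in KO. Both KO medians lay between those of control replicates 2 and 3. Over all genes tested the medians of the 5 libraries stayed between -0.01 and 0.00. The widest spread between libraries among members with at least 20 reads in each was that of Zfp979 in the chromosome 4 cluster, with 2.28, 2.66 and 1.001 CPM in the controls and 1.63 and 1.33 in KO. Zfp976 in the chromosome 7 cluster, with 1.95, 1.79 and 0.850 CPM against 1.155 and 1.19, had the same low control replicate 3.

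After smooth trends of each library on transcript length and GC content had been removed, the members' medians were 0.03, 0.00 and 0.01 in the controls, against 0.01 and -0.02 in KO. The median log2 fold change of KO over control moved from -0.13 to -0.02, 26 of 50 members instead of 34 were below 0, and again 0 members passed. Among the other numbered Zfp genes the medians before that step were 0.00, 0.06 and -0.08 in control libraries, against -0.13 and -0.18 in KO, so their controls lay closer together and their KO libraries lower than those of the members. What makes the libraries differ along length and GC content was not tested.

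**Figure D4:**
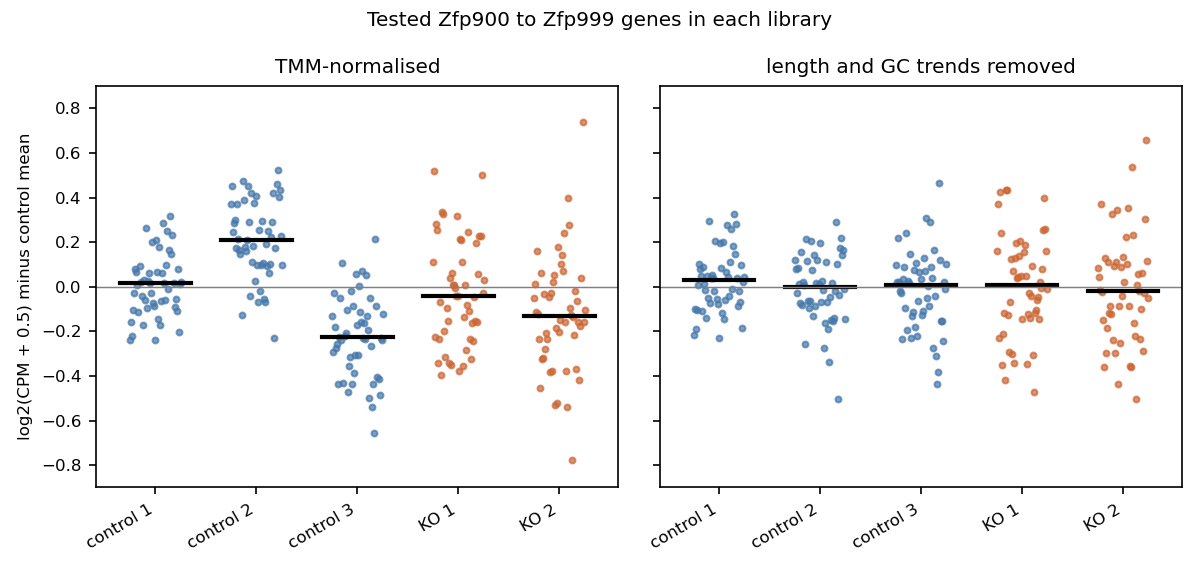
Each tested member (points) in each library as log2(CPM + 0.5) minus its control mean, before (left) and after (right) trends on transcript length and GC content were removed; bars are medians over the 50 members. On the left the medians of control replicates 2 and 3, 0.21 and -0.23, lie on either side of both KO medians, and on the right all 5 lie between -0.02 and 0.03.

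By position, all 10 members of the chromosome 17 cluster at chr17:21565816-22867309 had a log2 fold change below 0, from -0.45 to -0.04 with a median of -0.18, and none passed. In 8 of the 10 the groups overlapped, where over all genes 19.9% lay above all controls, 20% below, and the rest overlapped. With length and GC trends removed, 6 of 10 were below 0 and the median was -0.07. The 7 tested members of the chromosome 4 cluster had a median of 0.09, with 3 below 0, and showed the widest control spread, with medians of 0.42 in control replicate 2 and -0.40 in control replicate 3 on the deviation scale. The 5 tested members of the chromosome 2 cluster ranged from -0.87 to 0.51. The chromosome 2 and 4 clusters hold members with much shared sequence, such as Zfp967 (100% of windows) and Zfp991 (73.8%). In the chromosome 17 cluster the highest share was 5.39%, for Zfp994. Neighbours in a cluster were not taken as independent, and no test was made between clusters.

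The other 329 numbered Zfp genes, Zfp1 to Zfp899, stood beside the members with 2 higher and 2 lower of 314 tested. Of all genes tested 2.71% were higher and 1.05% lower (3.76% in either direction). These 4, named after their values were seen, were Zfp771 (log2 fold change 0.69) and Zfp87 (0.61), which rose, and Zfp109 (-1.43) and Zfp507 (-0.63), which fell. With length and GC trends removed 2 were higher and 4 lower, where 420 and 123 of all 17472 genes were. Zfp87 and Zfp109 passed again, and Zfp771 (0.26) and Zfp507 (-0.38) did not. Zfp120 (0.41), Zfp146 (-0.57), Zfp469 (-0.52) and Zfp866 (-0.48) passed in addition. The median log2 fold change of the 314 was -0.20, and -0.07 with the trends removed.

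Genes of the repression machinery that KRAB zinc finger proteins use were listed as well, together with genes of DNA methylation and its removal. For comparison, 3.76% of all genes tested passed, 21.9% had an unadjusted p under 0.05 and 52.4% had a log2 fold change below 0. Of 15 genes of the KRAB corepressor complex and histone H3 lysine 9 methylation, 14 were tested and 0 passed (0 higher, 0 lower; 1 at an unadjusted p under 0.05), with a median log2 fold change of -0.20 (-0.07 with length and GC trends removed) and 13 below 0. Trim28, the scaffold that the KRAB domain binds, had 147, 158 and 174 CPM in the controls and 168 and 168 in KO (log2 fold change 0.08, SE 0.12). Setdb1, the methyltransferase, had 35.7, 32.1 and 34.2 CPM in the controls and 29.9 and 28.5 in KO, below all controls, with a log2 fold change of -0.22 (SE 0.12, edgeR adjusted p = 0.305) that was -0.02 with length and GC trends removed. Atf7ip, the partner that stabilises Setdb1, had 29.4, 26.3 and 29.3 CPM in the controls and 19.1 and 20.7 in KO, and its log2 fold change of -0.51 (SE 0.13) did not pass (edgeR adjusted p = 0.0529), and with length and GC trends removed it was -0.22 (adjusted p = 0.256). Smarcad1, a chromatin remodeller that binds Trim28, had a log2 fold change of -0.29 (SE 0.13), or -0.05 with the trends removed.

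Of 4 genes of the HUSH silencing complex and its partners 0 passed (2 at an unadjusted p under 0.05), and all 4 log2 fold changes were below 0 with a median of -0.32; with the trends removed 3 were, with a median of -0.05. Pphln1 had 27.4, 28.5 and 24.3 CPM in the controls and 18.6 and 18.9 in KO, a log2 fold change of -0.51 (SE 0.13, edgeR adjusted p = 0.0564). With length and GC trends removed it was -0.40 (adjusted p = 0.0429). Tasor had a log2 fold change of -0.42 (SE 0.15), or -0.06 with the trends removed (adjusted p = 0.738). Of 13 genes of the NuRD deacetylase complex 0 passed (2 at an unadjusted p under 0.05), with a median of -0.06. The smallest p in that list belonged to Gatad2b (log2 fold change -0.57, SE 0.21) and Mbd3 (0.38, SE 0.14). With the trends removed these were -0.28 (adjusted p = 0.509) and 0.05 (adjusted p = 0.818), and Rbbp4, at 0.44 (adjusted p = 0.0314), passed.

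The list of 9 genes of DNA methylation and its removal held Dnmt1, Dnmt3a, Dnmt3b, Uhrf1, Zfp57, Zfp445, Tet1, Tet2 and Tet3. Zfp57 and Zfp445 are also counted among the other numbered Zfp genes above. Of the 9 genes 1 fell, Tet3, which oxidises methylcytosine and so works towards its removal. Tet3 had 146, 116 and 127 CPM in the controls and 81.5 and 86.0 in KO, a log2 fold change of -0.63 (SE 0.13, edgeR adjusted p = 0.0322). With length and GC trends removed it was -0.37 (adjusted p = 0.0513). Dnmt3a, a de novo DNA methyltransferase, had 60.6, 51.9 and 59.7 CPM in the controls and 43.1 and 42.4 in KO (log2 fold change -0.42, SE 0.12, edgeR adjusted p = 0.0798, and -0.15 with the trends removed). All 9 genes of that list had a log2 fold change below 0 (median -0.28), while with the trends removed 7 did and the median was -0.08. Over the 40 tested genes of these 4 lists, 1 passed against 3.76% of all genes, and 8 had an unadjusted p under 0.05 against 21.9%. Of the 40, 36 were below 0 with a median of -0.17, against 52.4% and -0.02 for all genes. After the trends were removed 30 were below 0 with a median of -0.06, against 9023 of 17472 and -0.01 for all genes. With a library left out the log2 fold change of Tet3 stayed between -0.53 and -0.70. It passed without control replicate 2 (adjusted p = 0.00584) and without control replicate 3 (adjusted p = 0.00360). It did not pass without control replicate 1 (-0.53, adjusted p = 0.197), KO replicate 1 (-0.59, adjusted p = 0.365) or KO replicate 2 (-0.67, adjusted p = 0.203), fits in which only 0, 1 and 128 genes of the whole table passed.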

How the data were processed

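RNA-seq of total RNA from ear skin was analysed in 3 control and 2 KO libraries, grouped and numbered by their titles. The deposited values are whole-number counts per gene, not normalized, for 27179 Entrez identifiers. FastQC, HISAT2 2.0.4, DESeq2 1.16.1 and the build GRCm38 (mm10) are named per the submitters' processing notes. The counting program, its strand setting and its treatment of reads with several matches were not given in the sources used here.

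Symbols came from RefSeq (25275 identifiers matched). Transcript lengths, GC content and coding sequences came from GENCODE M21, by the longest transcript (58 members). Low genes were removed with filterByExpr, leaving 17472, and libraries were scaled with TMM. KO was tested against control over the whole table with edgeR 4.0.16 (quasi-likelihood, robust, R 4.3.3) and Benjamini-Hochberg adjustment at 0.05. The biological coefficient of variation came to 0.154. All CPM are TMM-normalised, and 1 read was worth 0.0119 to 0.0303 CPM. Length and GC trends were fitted per library with mgcv 1.9.3; genes without a matched transcript, Zfp977 among the members, got no correction. Alternatives were DESeq2 1.42.0, limma 3.58.1 (voom), other scalings, no filter, a replicate block and leaving out each library. Scripts were tested on simulated data.

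Members given in every library were those passing, the 12 with the smallest unadjusted p, the 6 highest in CPM per kb and the 3 with the widest ratio between libraries among those with at least 20 reads in each. Of each cofactor list those passing, the 2 with the smallest p, Trim28 and Setdb1 were named. Members and lists were chosen with earlier results of these data known. Libraries of a group differed beyond sampling noise in every pair (chi-square per degree of freedom 22.9 to 76.3), so none was counted as a repeat.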

Additional observations from a re-analysis of the deposited data

How the results depend on the processing

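The number of members called was 0 higher and 0 lower under every scaling, filter and test tried, and 0 to 1 higher and 0 to 2 lower when a library was left out (Zfp993 without control replicate 2, Zfp948 and Zfp946 without control replicate 3). The smallest adjusted p of a member was 0.140 in the main analysis, 0.0774 with DESeq2 and 0.0846 with length and GC offsets (Zfp933). With the replicate block it was 0.0518 and again 0 members passed. Only the control group has a replicate 3, so in that setting KO was in effect compared with control replicates 1 and 2. Its values lay near those without control replicate 3 (Zfp946 -0.654 and -0.655, Zfp943 -0.38 and -0.41). Deviations of same-numbered libraries correlated by 0.016 and 0.064. With 2 KO libraries centred on their own mean, KO replicate 2 mirrors KO replicate 1, so these values cannot decide pairing. The numbers were not taken as pairing. The count of all genes passing, 657, was 1834 with DESeq2, 1242 with library size alone, 1036 with no count filter, 2037 with the replicate block, 296 with length and GC offsets together with the replicate block, and 0 to 3277 with a library left out. Listed cofactor genes higher in KO, 0 in the main analysis, were 1 with length and GC offsets (Rbbp4), 1 with the replicate block and 0 to 1 with a library left out. Those lower, 1 in the main analysis, were 5 with DESeq2, 5 with library size alone, 4 with no count filter, 6 with the replicate block, 0 with offsets and replicate block together, and 0 to 8 with a library left out. The causes were not tested. The median log2 fold change of the tested members ran from -0.28 (library size alone, where that of all genes was -0.16) to -0.00 with offsets and block together, and from -0.23 to 0.00 with a library left out. Of 221 values of 17 named members under 13 alternatives, 217 kept their direction and side of the threshold, 3 newly passed, and 1 reversed, Zfp949 at -0.11 with library size alone. With 3 and 2 libraries the 95% interval reached past a 2-fold change for 12 of 50 members, and for the 9 members with at least 50% shared windows the counts depend on a read assignment that is not given here.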
